A study of Homo sapiens with 24 samples.

Results

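The genes of 10 ETS family transcription factors were examined for super-enhancers in OCI-Ly7 cells. The 10 genes were SPI1, SPIB, ETS1, ETS2, FLI1, ERG, ETV6, ELF1, ELF2 and GABPA. A gene was counted as having a super-enhancer when a region of the deposited list overlapped its GENCODE version 44 body (hg38) extended by 50 kb on either side. By this rule 6 of the 10 genes had at least 1 region, and together they held 12 distinct regions of the 2615 in the list.

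OCI-Ly7 is an established cell line from a germinal center B-cell-like diffuse large B-cell lymphoma. In CUT&RUN, a nuclease tethered to an antibody releases the DNA that carries a histone mark, and isogenic clones of the line were profiled in this way for H3K27ac, H3K4me1 and H3K4me3 in 4 genotypes with 2 samples each (24 samples). The genotypes were WT (clones taken through CRISPR without an edit), C (CREBBP R1446C, a point mutant of a histone acetyltransferase), K (knockout of KMT2D, a histone methyltransferase) and CK (both lesions). The values below are 1 H3K27ac signal per region for the pooled 2 WT libraries, and no value of the other 22 samples was analysed here. They carry no replicate error and were not tested. The signal, summed over each region by the ROSE program, had no stated unit and is used as a relative level within the list. Only regions above the cutoff of 10617 were listed, and peaks within 2500 bp of a transcription start site (TSS) had been left out before peaks within 12.5 kb were joined. A gene with no region may therefore still carry H3K27ac at its promoter or in smaller enhancers.

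ETS factors share a winged helix-turn-helix DNA-binding domain that contacts a GGAA core, and the bases around the core differ between subfamilies. In B cells, PU.1 (the product of SPI1) and SPIB bind alone or together with IRF4 or IRF8 at composite elements, ETS1 and FLI1 act in lymphocyte development and differentiation, and ETV6 is a repressor. Enhancers in use carry H3K27ac, and stretches where many such enhancers lie close together with a high summed signal are called super-enhancers.

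The pattern was uneven within the family. SPI1, ETS1, FLI1, ETV6, ELF2 and GABPA had regions, and SPIB, ETS2, ERG and ELF1 had none. The share of 60% stood beside 30.7% of all 19970 protein-coding genes under the same rule. The regions of all 6 genes also included one that overlapped the gene body itself, which 17.3% of all genes had. That share was not matched for gene length. The family includes several long genes. Among members of 100 kb or more, 4 of 6 had a region (ETS1, FLI1, ETV6 and ELF2, not ERG or ELF1), beside 32.9% of all genes of that length. Among shorter members, 2 of 4 had a region (SPI1 and GABPA, not SPIB or ETS2), beside 30.3% of all shorter genes. The 10 genes were chosen with earlier results of these data known, and ETS1 and FLI1 are neighbours that share a region. These counts are a description.

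**Figure D1:**
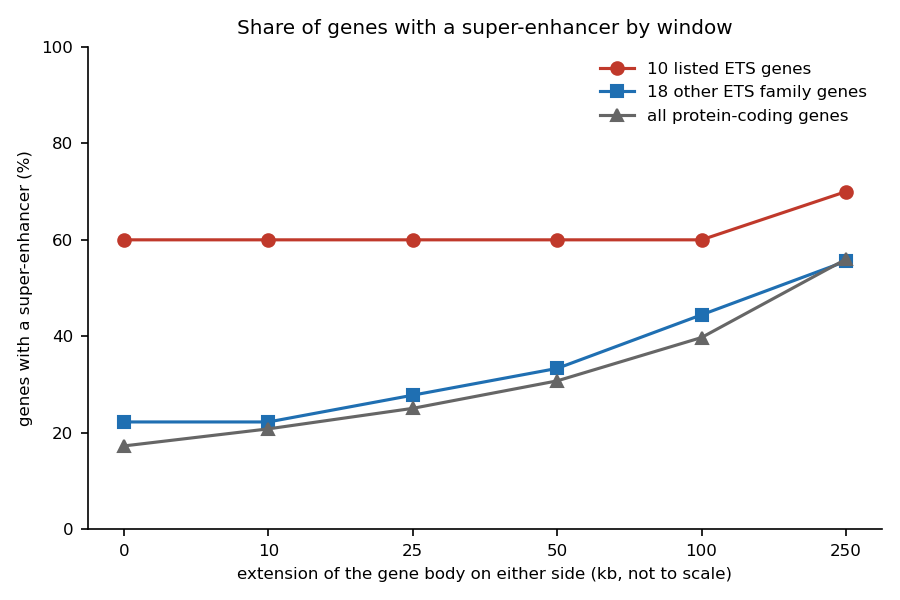
Percentage of genes with a super-enhancer (y axis) as the gene body was extended by 0 to 250 kb on either side (x axis, not to scale), for the 10 listed ETS genes, the 18 other ETS family genes and all protein-coding genes. The listed genes stayed at 60% from 0 to 100 kb and reached 70% at 250 kb, whereas all genes went from 17.3% to 56.0%. The shares of all genes are not matched for gene length, and the listed genes were chosen with earlier results of these data known.

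Widening the window from 0 to 100 kb did not add a listed gene, and 250 kb added ELF1 only. Regions lay either close to the genes or far from them. The most distant region inside the rule was 37.2 kb from its gene (ETS1), and the nearest outside it was 93.0 kb from SPI1, on the side of its 3′ end.

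The 12 regions had signals from 16201 to 45348 with a median of 33704, beside 19736 for all regions. By signal, 9 of the 12 were in the upper part of the list (ranks up to 1307), and 9 had at least 2 times the cutoff, beside 44.7% of all regions. None was among the very strongest regions. The highest rank was 294, for a region upstream of SPI1, and the lowest was 1670, for the region over GABPA. The median of the best rank per gene was 437.

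**Figure D2:**
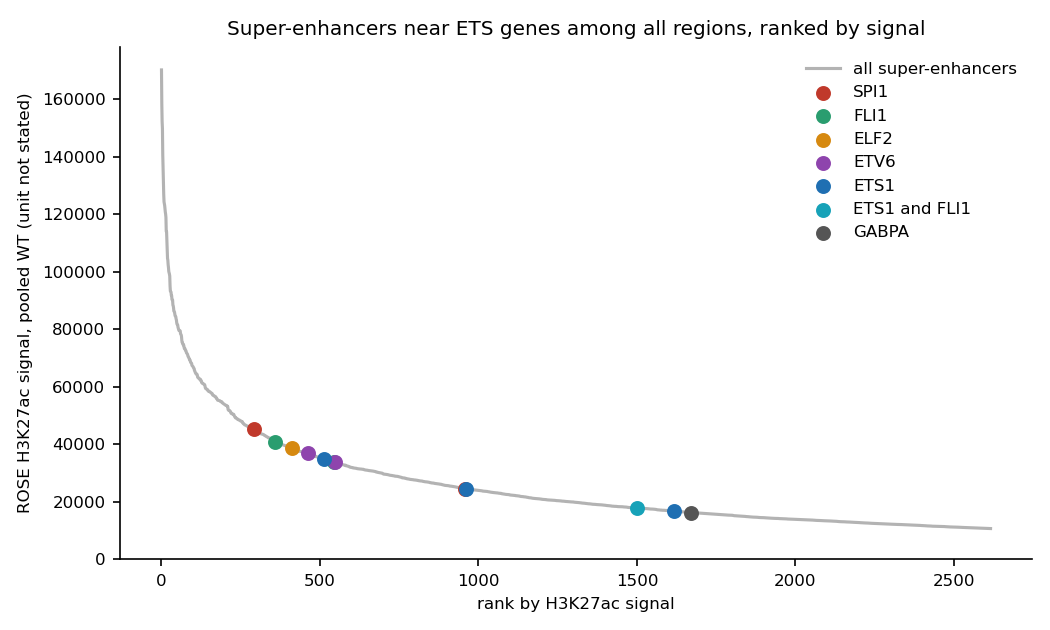
ROSE H3K27ac signal of pooled WT (y axis, unit not stated) against rank by signal (x axis) for all 2615 super-enhancers (grey line), with the 12 regions of ETS genes as coloured points. The points run from rank 294 (SPI1, 45348) to rank 1670 (GABPA, 16201), and those at ranks 544 and 547 and at 959 and 962 overlap.

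SPI1 (chr11:47354860-47378547, minus strand) encodes PU.1, a factor needed for the development of both myeloid and B cells. Its strongest region (chr11:47388498-47423094) had a signal of 45348, 4.27 times the cutoff, over 34.6 kb with 6 constituent peaks. It began 9.95 kb upstream of the TSS and reached 44.5 kb upstream, across SLC39A13 and into PSMC3. The signal per bp of this region was 1.31, which ranked 69 of 2615. A weaker and longer region (chr11:47274679-47370156) had a signal of 24461 (rank 959) over 95.5 kb with 30 constituents. It began 8.39 kb downstream of the TSS, covered 64.6% of the SPI1 body and ran on through MYBPC3 into MADD, at 0.256 signal per bp. Thus the SPI1 start site lay in an 18.3 kb gap between a dense region upstream and a sparse one over the gene. Neither region belonged to SPI1 alone by distance. The upstream region lay within 50 kb of 6 protein-coding genes and the other within 50 kb of 8. Their nearest start sites were those of SLC39A13 and MYBPC3, which lay inside the regions. The signal was summed over each region and so takes in these start sites. When a region was given only to the gene with the nearest start site, SPI1 lost both.

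SPIB (chr19:50418938-50431314, plus strand), the close relative of SPI1 expressed in B cells, had no region. The nearest was 999.5 kb away, over KASH5 (rank 2409, signal 11617). SPIB lay in a stretch of 6652 kb without a region, which held 242 protein-coding genes. Of the 2592 gaps between neighbouring regions, 3.24% were at least as long.

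ETS1 (chr11:128458761-128587558, minus strand) is a lymphoid ETS factor that restrains plasma cell differentiation. It had 4 regions, a number that 20 protein-coding genes reached or passed, all of them 100 kb long or more. The strongest (chr11:128544660-128576197) had a signal of 34804 (rank 512) over 31.5 kb with 8 constituents. It lay wholly within the gene, 11.4 to 42.9 kb downstream of the TSS, and 97.7% of it was intronic. A region across the 3′ end of the gene (chr11:128448361-128471036) had 24437 (rank 962) over 22.7 kb with 7 constituents. Another region, the shortest of the 12 at 15.2 kb, began 8.66 kb upstream of the TSS (chr11:128596213-128611373) and had 16712 (rank 1617) from 3 constituents. These regions had nearly the same signal per bp, at 1.10, 1.08 and 1.10.

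The remaining ETS1 region (chr11:128624797-128671413) was shared with FLI1. It lay in the 99.0 kb between the start sites of the pair, which are transcribed away from each other, as did the region just upstream of ETS1, and it had a signal of 17751 (rank 1500) over 46.6 kb with 7 constituents. At 0.381 signal per bp it was sparser than its neighbours. It touched no protein-coding gene, and FLI1 had the nearest protein-coding start site, at 15.1 kb.

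FLI1 (chr11:128686535-128813267, plus strand) is active in megakaryocytes, endothelium and B cells. Within FLI1, a region of 25.5 kb (chr11:128700667-128726147) had 33751 (rank 544) from only 5 constituents, wholly in intronic sequence 14.1 to 39.6 kb downstream of the TSS. Its signal per bp of 1.32 was the highest of the 12 regions and ranked 64 of all. A region over the distal part of the gene and KCNJ1 (chr11:128743777-128878903) had the higher signal, 40714 (rank 359), but spread it over 135 kb and 49 constituents at 0.301 per bp. In both ETS1 and FLI1, therefore, the start site lay in a gap between regions (20.0 and 29.3 kb), as at SPI1. A start site between regions within 20 kb on either side was found for 3 of the 10 genes and 1.15% of all protein-coding genes. This limit was chosen after the values were seen, and peaks within 2500 bp of a start site had been removed by the authors.

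Along 431 kb of chromosome 11, ETS1 and FLI1 together held 6 regions with 79 constituents and a summed signal of 168169. The regions covered 64.2% of this span. Windows of the same length were started at each of the 2615 regions, and 4 of them (0.153%), this one included, held as many regions, with a median of 2. The length was set by the outer edges of these 6 regions after they were seen, so this share describes the locus and is no measure of how rare it is. As much summed signal was found in 13 windows (0.497%), with a median of 38807. The regions were separated by 13.4 to 73.6 kb, so that the smallest gap was just over the 12.5 kb at which peaks were joined.

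**Figure D3:**
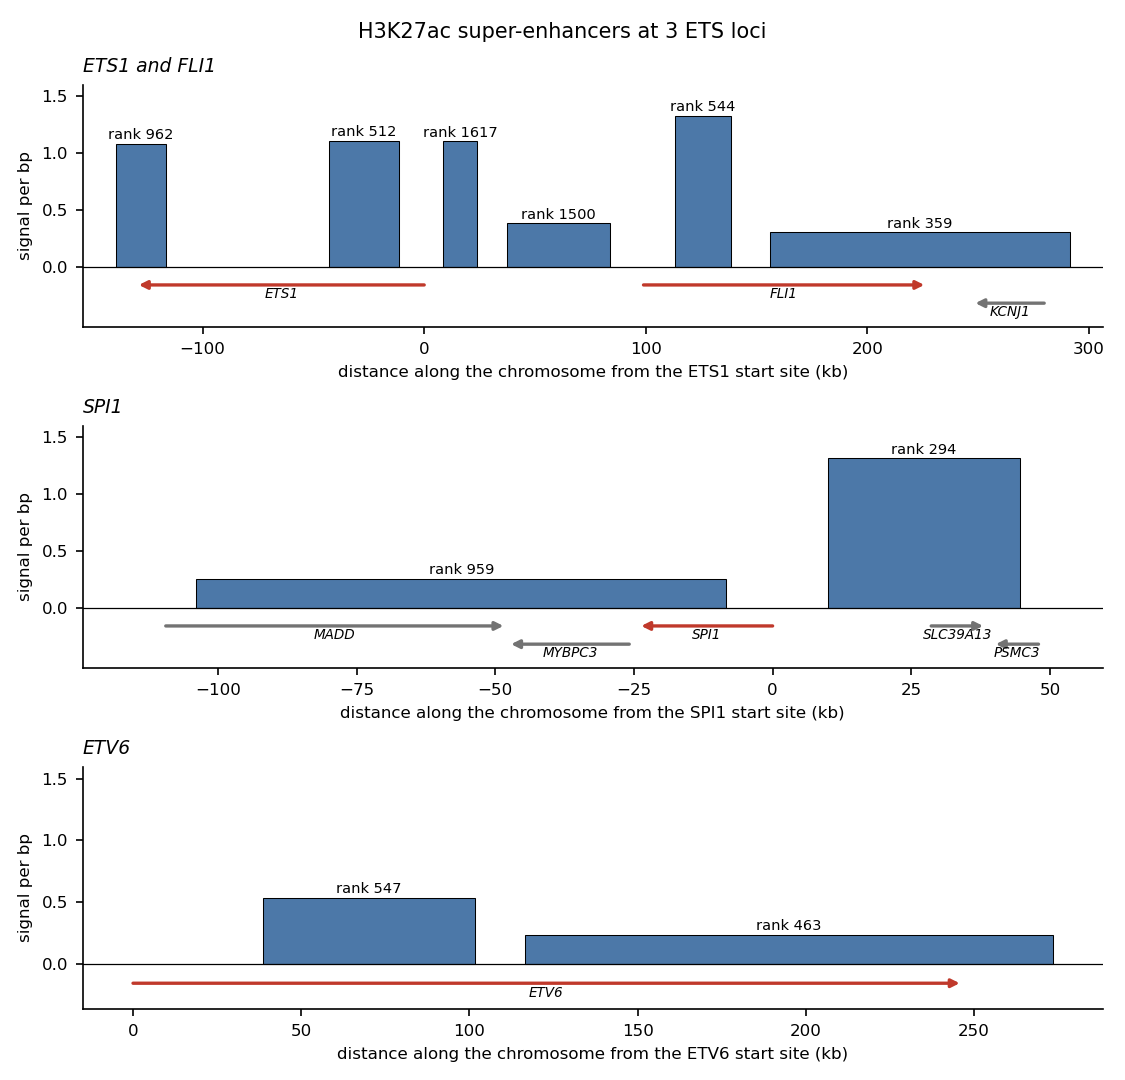
Signal per bp (bar height, y axis) and extent (bar width) of the super-enhancers at ETS1 and FLI1, SPI1 and ETV6, against distance along the chromosome from the start site of ETS1, SPI1 or ETV6 (x axis, kb), with arrows for protein-coding genes in their direction of transcription (members in red). Bars above 1 per bp stand on either side of the ETS1 start site, in FLI1 and upstream of SPI1, and the longest bars are the lowest.

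ERG (chr21:38380027-38661780, minus strand), the factor most like FLI1, and ETS2 (chr21:38805183-38824955, plus strand), the factor most like ETS1, also lie near each other, 143 kb apart on chromosome 21. No region was listed for either. The nearest region, over DYRK1A (rank 1924, signal 14224), was 845 kb from ERG and 1270 kb from ETS2. Both genes lay in the same 4261 kb stretch without a region, and 6.37% of all gaps were as long. Of all protein-coding genes on chromosome 21, 31.4% had a region, close to the share in the genome. The neighbouring pair on chromosome 11 and the neighbouring pair on chromosome 21 thus stood at 6 regions and 0.

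ETV6 (chr12:11649674-11895377, plus strand), a repressor fused or deleted in several leukemias, had a pair of regions that no other protein-coding gene shared within 50 kb. The upstream of them (chr12:11688392-11751175) lay wholly in the gene, 38.7 to 102 kb downstream of the TSS, and was 99.7% intronic. It had a signal of 33658 (rank 547) over 62.8 kb with 16 constituents, or 0.536 per bp. The other (chr12:11766055-11922959) was the longest of the 12 at 157 kb and had 36888 (rank 463) from 47 constituents, running past the 3′ end of the gene. It was also the sparsest, at 0.235 per bp. Together the regions covered 78.2% of the ETV6 body. Upstream of the start site there was no region for 1397 kb.

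ELF2 (chr4:139028112-139177218, minus strand) encodes a broadly expressed ETS factor. It had 1 region (chr4:139163586-139269482) with a signal of 38599 (rank 411) over 106 kb with 20 constituents. The ELF2 start site lay inside it, but only 12.9% of the region was in the gene. On the upstream side, 84.0% was outside any protein-coding gene body. NDUFC1 and MGARP were also overlapped. No other region was found for 10158 kb beyond the 3′ end of ELF2. Its relative ELF1 (chr13:40931924-41061440, minus strand) had none within the rule. The nearest lay 150 kb away over MRPS31, with a signal of 40047 (rank 379), higher than that at ELF2.

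GABPA (chr21:25734570-25772460, plus strand) encodes the DNA-binding subunit of GABP, a regulator of many housekeeping and mitochondrial genes. Its region (chr21:25717864-25760432) was the weakest of the 12, with 16201 (rank 1670, 1.53 times the cutoff) over 42.6 kb with 9 constituents. The start sites of GABPA and of ATP5PF, a subunit gene of the mitochondrial ATP synthase transcribed in the other direction, both lay inside it. No other region lay within 6528 kb. When only regions with at least 2 times the cutoff were kept, GABPA was the member that was lost.

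The regions differed more in density than in signal. Signal per bp ranged from 0.235 to 1.32, with a median of 0.458 beside 0.343 for all regions. Of the 12 regions, 5 were above 1.05, the 95th percentile of all regions. They were the region upstream of SPI1, the 3 regions in and next to ETS1, and the intronic region of FLI1. All 5 were under 50 kb long, and short regions need a high density to pass the cutoff. Among all regions under 50 kb, 13.1% were above 1.05, beside 5 of 7 of the ETS regions of that length. Set against regions of like length, the difference was smaller. All 3 ETS regions under 30 kb were above the median of their length class (0.734) but none was above its 95th percentile (1.81). Between 30 and 50 kb, the SPI1 and ETS1 regions were above the 95th percentile of the class (1.03), and the other 2 (0.381 each) were just below its median of 0.388. Between 50 and 100 kb, the ETV6 region (0.536) was above the class median of 0.279 and the SPI1 region (0.256) below it. Above 100 kb, FLI1 and ELF2 were above the class median of 0.278 and ETV6 was below it. Leaving out ETS1 and FLI1, 1 of 6 regions was above 1.05 and the median was 0.373.

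**Figure D4:**
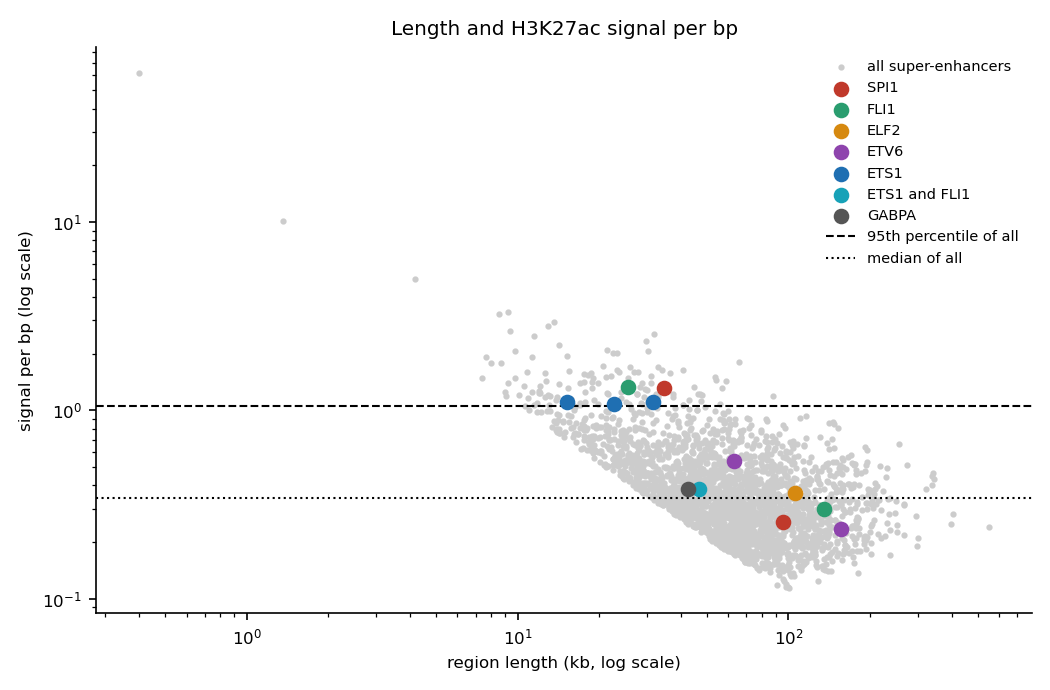
H3K27ac signal per bp (y axis, log scale) against region length in kb (x axis, log scale) for all 2615 super-enhancers (grey) and the 12 regions of ETS genes (coloured by gene). The dashed line is the 95th percentile of all regions (1.05) and the dotted line the median (0.343), and 5 ETS regions between 15.2 and 34.6 kb lie above the dashed line.

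Having several regions was common among the members. Of the 6 genes with a region, 4 had 2 or more (SPI1, ETS1, FLI1 and ETV6), beside 23.9% of all genes with a region. Of the 4 members of at least 100 kb with a region, 3 had several, beside 35.0% of all genes of that length with a region. The constituent peaks were not packed more closely than elsewhere, with a median of 2.33 per 10 kb in the 12 regions and 2.65 in all regions.

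The other 18 genes of the family stood near the background. The members and lists were chosen with earlier results of these data known, so the contrast with the 60% of the listed genes only describes these lists. A region was found for 6 of them (33.3%), namely SPDEF (rank 41), ELK3 (208), ELK4 (563), ELF4 (1440), ERF (1460) and ETV5 (2195), where the rank is that of the best region. The region of SPDEF, an epithelial factor, had a signal of 86124 and also overlapped PACSIN1 and ILRUN. The best regions of ELK3, ELK4, ERF and ETV5 lay over other protein-coding genes and not over the gene named. Regions that overlapped ELK3 and ELK4 themselves ranked 877 and 700. None was found for ELF3, ELF5, EHF, ELK1, ETV1, ETV2, ETV3, ETV3L, ETV4, ETV7, FEV or SPIC. Over the family of 28 genes, 12 (42.9%) had a region.

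Genes for partner proteins of ETS factors were also examined. Of 9, a region was found for 5, namely PAX5 (rank 216), RUNX1 (389), SRF (1576), IRF4 (1825) and CBFB (2318), beside 30.7% of all genes. At 2 times the cutoff or more the count was 2, beside 15.2% of all genes. With an extension of 100 kb it was 8, beside 39.7% of all genes. PAX5, which recruits ETS1 to the CD79A promoter, and RUNX1, which binds next to ETS1, thus had the strongest. IRF4, the partner of PU.1 at composite elements, had a signal of 14974 at 3.83 kb from the gene. IRF8, the partner of PU.1 in germinal center B cells, was just outside the rule, with a region at 52.5 kb (rank 1483). GABPB1 and GABPB2, which encode the subunits that pair with GABPA, had regions only at 62.8 and 76.5 kb, and JUN had none within 4376 kb.

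Among 6 B cell genes with known ETS sites, 5 had a region, beside 30.7% of all genes. The count was 3 of 6 both without an extension of the gene body and at 2 times the cutoff or more. Of all genes, 17.3% and 15.2% had a region under these settings. The 5 genes were CD79A (rank 159), which encodes a chain of the B cell receptor complex, PTPRC (398), which encodes CD45, BLNK (1043), an adaptor of receptor signaling, MS4A1 (1218), which encodes CD20, and CD79B (2257). The CD79A region had a signal per bp of 1.22 and lay 23.8 kb from the gene over ARHGEF1 and ERFL. BTK had none. As a check of the cell type, the B cell markers MS4A1, CD79A, CD79B, PAX5 and BCL6 (rank 1468) had a region, beside 1 of 6 T cell markers (TRAC, rank 769) and 1 of 6 myeloid markers (CSF1R, rank 2511). CD14, LYZ, CEBPA, MPO and CD33 had none.

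The sequence of the regions was searched for ETS motifs on both strands of hg38. The motifs were the core GGAA, the class I site CCGGAAGT bound by ETS1 and GABPA, the site GAGGAAGT bound by PU.1 and SPIB, and the composite of GGAA followed after 2 bases by GAAA, bound by PU.1 or SPIB with an IRF. The 8-base motifs contain the core, as does the composite. A match is a string of letters and was not tested for binding. All 12 regions held the PU.1 site, but so did 91.2% of all regions, and 0.632 matches per 10 kb stood beside 0.537. The 49 matches in the ETS regions are thus near the background. The windows below are the PU.1 and class I matches in the 5 regions above 1.05 signal per bp that overlap no annotated exon, shown because these regions were the densest of the 12. The region across the 3′ end of ETS1 had 1 match, and its window overlapped an exon. So did that of a further PU.1 match in the SPI1 upstream region, 44.4 kb upstream of the start site. These matches are not shown. The windows shown give the motif in capitals with 16 bases on either side, on the strand of the motif.
SPI1 upstream region, PU.1 site at chr11:47394156-47394195, plus strand: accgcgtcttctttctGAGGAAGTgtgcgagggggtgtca
SPI1 upstream region, class I site at chr11:47400372-47400411, plus strand: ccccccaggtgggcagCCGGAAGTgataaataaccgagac
SPI1 upstream region, PU.1 site at chr11:47419356-47419395, plus strand: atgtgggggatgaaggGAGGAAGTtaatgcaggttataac
ETS1 intronic region, PU.1 site at chr11:128563955-128563994, minus strand: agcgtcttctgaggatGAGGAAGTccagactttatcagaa
ETS1 intronic region, PU.1 site at chr11:128568435-128568474, minus strand: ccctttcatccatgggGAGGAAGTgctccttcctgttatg
ETS1 upstream region, PU.1 site at chr11:128599241-128599280, plus strand: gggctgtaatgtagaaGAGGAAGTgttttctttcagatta
FLI1 intronic region, PU.1 site at chr11:128704053-128704092, minus strand: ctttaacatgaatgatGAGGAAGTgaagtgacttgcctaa

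In the SPI1 upstream region these matches lay 15.6, 21.8 and 40.8 kb upstream of the SPI1 start site. It was the only one of the 5 densest regions with a class I match. In the FLI1 region the match lay 17.5 kb downstream of the FLI1 start site, and in the ETS1 upstream region it lay 11.7 kb upstream of that of ETS1. Class I matches were rare, with 8 in 5 of the 12 regions, and 38.8% of all regions held one.

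The core was somewhat denser in the ETS regions, with a median of 112 matches per 10 kb beside 97.8 in all regions, and 9 of 12 were above the median of all. The region across the 3′ end of ETS1 had the most, at 134, and ELF2 the fewest, at 79.4. Above the 95th percentile of all regions (117) were 5 of 12, of which 3 lay in or next to ETS1, 1 in FLI1 and 1 in ETV6. Outside runs of repeated cores the medians were 109 and 95.2. The ETS regions were also lower in GC content, with a median of 43.4% beside 45.7%. In the 756 regions within 2 percentage points of 43.4%, which included 7 of the 12, the median for the core was 98.0, close to that of all regions.

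The composite was found 107 times, in all 12 regions, but 97.1% of all regions held it too. The median was 1.63 per 10 kb beside 0.922 in all regions, and 7 of 12 were above the latter. With matches and bases pooled over regions, the rates were 1.38 and 0.978 per 10 kb. Of the 107 matches, 11 lay in purine-rich tracts (windows of 40 bases with at least 36 purines), and 6 of these were among the 7 matches of the ETS1 intronic region, 5 of them in a single repeat. Without such matches that region went from 2.22 to 0.317 per 10 kb and ELF2 from 1.42 to 1.04, and the medians were 0.963 for the ETS regions and 0.865 for all regions, so that most of the difference was gone. This way of counting was chosen after the values were seen. Outside these tracts the regions at the 3′ end and upstream of ETS1 (2.65 and 1.98), the ETV6 regions (1.85 and 2.55) and the shared region (1.72) were the highest. SPI1 (0.289 and 0.524), GABPA (0.470) and the FLI1 region within the gene (0.785) were below the median of all regions, and the other FLI1 region (0.888) was close to it. In the 756 regions of like GC content the median outside the tracts was 0.986, above that of the ETS regions. The 95th percentile of those regions (1.91) was passed by 3 of the 12, the regions at the 3′ end and upstream of ETS1 and the ETV6 region nearer the start site. Only 7 of the 12 were themselves of like GC content. The ETS1 upstream region, at 40.8% GC and with 3 matches, was not. The part of GC content was not tested.

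**Figure D5:**
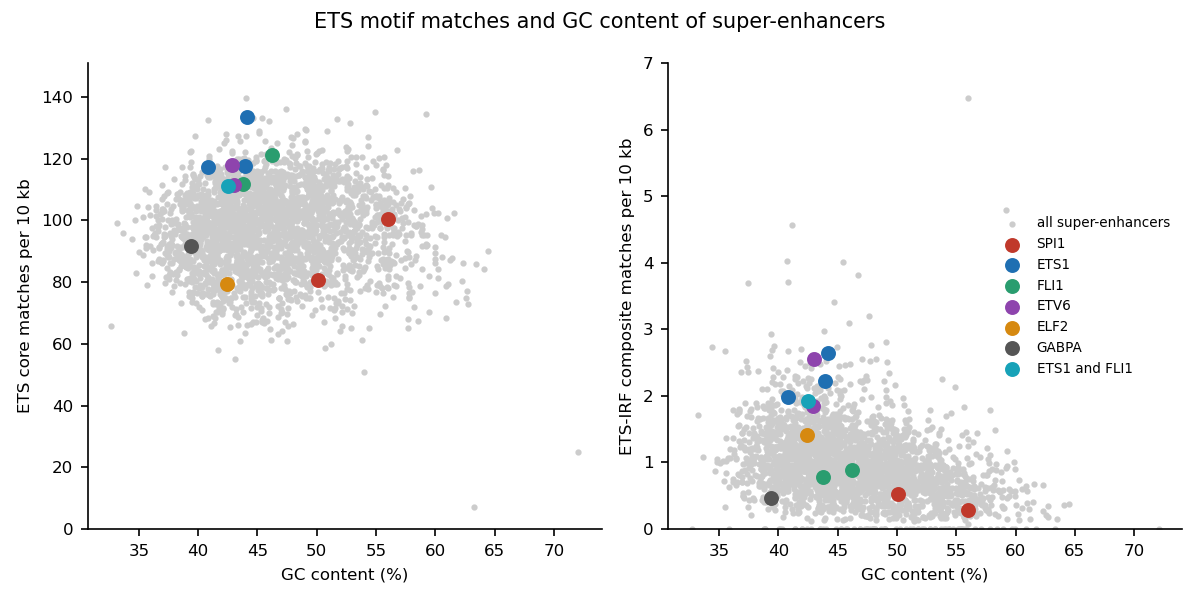
Matches per 10 kb of the ETS core (left) and of the ETS-IRF composite (right) against GC content (x axis, %) for all super-enhancers (grey) and the 12 regions of ETS genes (coloured by gene). The y axes end at 151 and 7, above which 6 and 5 regions of the list are not drawn, and the SPI1 points lie low in the right panel at higher GC content. Matches in purine-rich tracts are included, and they make up 6 of the 7 composite matches of the ETS1 point at 2.22.

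The form of the composite with GT between its parts is that of an immunoglobulin lambda light chain enhancer element. PU.1 and IRF4 were described to bind that element together. The GT form was picked out after the matches were seen, and other forms, such as that with CT, are not shown. It occurred 8 times in the 12 regions, or 0.103 times per 10 kb beside 0.0527 in all regions, and 5 of the 8 were in ETV6. The 7 that overlap no annotated exon are shown on the strand of the motif, with the composite in capitals and 15 bases on either side, since they are the matches closest to that element.
ETV6 at chr12:11695492-11695531, plus strand: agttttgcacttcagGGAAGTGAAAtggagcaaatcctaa
ETV6 at chr12:11734963-11735002, plus strand: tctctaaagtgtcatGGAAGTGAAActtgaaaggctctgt
ETV6 at chr12:11776650-11776689, plus strand: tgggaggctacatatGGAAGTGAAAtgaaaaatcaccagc
ETV6 at chr12:11836535-11836574, plus strand: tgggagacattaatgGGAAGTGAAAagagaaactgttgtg
ETV6 at chr12:11922526-11922565, minus strand: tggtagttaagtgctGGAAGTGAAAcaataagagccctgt
FLI1 at chr11:128829888-128829927, minus strand: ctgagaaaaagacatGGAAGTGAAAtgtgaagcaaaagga
ETS1 at chr11:128456567-128456606, plus strand: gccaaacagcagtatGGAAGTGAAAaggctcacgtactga

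The ETV6 matches were spread over both of its regions, from 45.8 to 273 kb downstream of the start site. The FLI1 match lay 143 kb downstream of its start site and beyond the 3′ end of the gene. The ETS1 match lay 131 kb downstream of its start site, also beyond the 3′ end.

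RefSeq promoter windows (GRCh38.p14, 250 bases before the start) were matched for 7 of the 10 genes, with 14 windows in all. Of these windows, 1 of ELF2 and that of GABPA lay inside a super-enhancer. The GABPA window held 1 class I site, which 3.42% of all 35116 promoter windows hold. This is the kind of site that GABP binds. It is shown with 10 bases on either side because it is the only class I match in the 14 windows, with the motif in capitals on its own strand.
GABPA promoter, chr21:25734895-25734922, minus strand: ggagccagggCCGGAAGTagagcggagg

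It ended 59 bases before the RefSeq start. By the GENCODE start used elsewhere here it lay 0.339 kb downstream of the TSS and overlapped an annotated exon, so that its place in the promoter depends on the RefSeq start. The ELF2 window inside the region held no core, nor did that of SPIB and 1 of ELF1, whereas 92.7% of all windows held at least 1. The remaining windows held 1 to 6 cores, with 3 to 6 in those of ETV6 and ETS2.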

How the data were processed

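CUT&RUN libraries of OCI-Ly7 clones were processed by the authors with nf-core cutandrun on hg38, with an IgG control per genotype, depth scaled to reads at promoters, peaks called by SEACR and summits by MACS2. The submitters' processing notes also list DiffBind 3.6.1 and DESeq2, whose output was not used here. The deposited signal is the ROSE value of each stitched region for the pooled 2 WT H3K27ac libraries, with stitching at 12.5 kb and a 2500 bp TSS exclusion. Read depth per sample was not given in the table, so no interval was computed.

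Here, regions were joined to GENCODE version 44 protein-coding genes by position, and the signal was divided by the length of the region (end minus start) to give signal per bp. Motifs were counted on both strands of hg38, and promoter windows came from RefSeq. All 10 ETS genes were named with every region, other list genes where they had a region, and other genes where a region overlapped them. The members and lists were chosen with earlier results of these data known. A further B cell marker is not reported here. No test was run. The procedures were checked on simulated data. Python 3.11.15, numpy 2.4.6, pandas 2.3.3 and pysam 0.24.0 were used.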

Additional observations from a re-analysis of the deposited data

How the results depend on the processing

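Of 55 alternative values for 9 results, 48 stayed within 1.5 times the value reported, the limit used here because there is no replicate spread. The number of the 10 ETS genes with a region was 5 to 7 under every alternative window or choice of regions. The share of all genes varied more. It was 15.2% at 2 times the cutoff or more, beside 5 of the 10, and 56.0% with an extension of 250 kb, beside 7 of the 10. The median signal, median signal per bp over the whole region and median best rank of the ETS genes were within that limit under all of these alternatives. The limit is wider than some differences from all regions (signal per bp 0.458 beside 0.343, ETS core 112 beside 97.8). Staying within it does not show that these differences were kept. Signal per bp was 0.381 without an extension and 0.373 without ETS1 and FLI1. Keeping only regions of high signal could not lower the median signal or worsen the best rank. With the summed constituent length in place of the region length, the median signal per bp was 5.78 for the ETS regions, beside 3.03 for all regions, and 9 of 12 were above the latter. This value divides the signal of the whole region by a length that follows the number of constituents (1203 bp for 3 and 2807 bp for 7 at ETS1). It is therefore no density within the peaks. The gene lists depended more on the setting. Keeping regions with at least 2 times the cutoff left 3 other ETS family genes, 2 partner genes and 3 B cell genes with ETS sites, beside 15.2% of all genes. Extending gene bodies by 100 kb gave 8 partner genes, beside 39.7% of all genes. No extension left 3 B cell genes with ETS sites, beside 17.3% of all genes. Chosen after seeing the data, leaving out ETS1 and FLI1 left 4 genes with a region, beside 30.7% of all genes. These were SPI1, ETV6, ELF2 and GABPA, and SPIB, ETS2, ERG and ELF1 remained without. Also chosen after seeing the data, leaving out matches in purine-rich tracts brought the median density of the composite from 1.63 to 0.963 per 10 kb.

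No paired analysis was possible because WT had only 1 pooled value per region. The cutoff limits what can be seen: weaker enhancers were not listed, and the study gives only an approximate depth per sample, not the reads behind each signal. Distance alone does not show which gene a region acts on.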
